A study of Mus musculus with 79 samples.

Results

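Heat shock genes and immediate early genes are the transcripts that cells raise within minutes of stress or of a growth signal, and 10 of them are described here in sorted cells from the tail end of mouse embryos. The rule that picks them is a list of symbols, and all 10 were found among the 23983 gene symbols of each of the 3 expression tables. They are the inducible Hsp70 genes Hspa1a and Hspa1b, the constitutive Hsp70 gene Hspa8, the Hsp90 gene Hsp90aa1, the Hsp110 gene Hsph1, the Hsp40 gene Dnajb1, and the transcription factor genes Fos, Jun, Egr1 and Atf3. The study followed neuro-mesodermal progenitors, the cells that give rise to spinal cord and paraxial mesoderm, and asked how the transcription factors T (Brachyury), Sox2 and Tbx6 act in that choice.

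All embryos were grown from embryonic stem cells by tetraploid complementation, and cells of pooled caudal ends were freed with ice-cold trypsin and sorted. The sort table holds T+ Sox2+, T+ and Sox2+ fractions of wild-type (WT) C57BL/6N embryos at Theiler stage (TS) 12, made with the TotalScript kit. The knockout table holds T+ cells of embryos homozygous for the T2J allele (T KO, C57BL/6J) and of WT embryos (C57BL/6N) at TS12 and TS13, and Tbx6+ cells at TS14 in a pair titled Tbx6 KO and WT (both C57BL/6J). ScriptSeq, a kit that keeps strand, was used for these 6 libraries once ribosomal RNA had been removed. The cell table holds 53 T+ Sox2+ cells from TS13, sorted from WT C57BL/6N embryos and loaded on 1 Fluidigm C1 chip. As labelled, strain and T genotype cannot be told apart in the T+ libraries, although the T KO samples of the ATAC part carry the label C57BL/6N. The titles of the Tbx6+ pair and the names of their source tissue give opposite genotypes, so these 2 libraries are called the Tbx6 KO-titled library and the WT-titled library. Every bulk group is 1 library of pooled embryos and has no replicate, so a difference between libraries has no replicate check.

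Chaperones of the Hsp70, Hsp90, Hsp110 and Hsp40 families hold and refold proteins, and the heat shock factor HSF1 drives the inducible ones when unfolded protein accumulates. Immediate early genes such as Fos, Jun and Egr1 are transcribed without new protein synthesis, largely downstream of ERK and stress kinases, and Atf3 is raised by stress through several of these routes. Both groups of transcripts are known to rise in tissues that are dissociated warm with enzymes before cells are sorted. HSF1 binds inverted repeats of the letters GAA, which can be looked for in the promoters.

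Promoter sequences are shown for Hspa1a, Hspa1b and Jun, whose levels stood apart in single libraries, and for Hsph1, which carries the longest heat shock motif of the members. Each run is the 250 bases before the start site of its RefSeq window (GRCm38.p6), all on the minus strand, 5′ to 3′, with inverted GAA pairs (GAANNTTC or TTCNNGAA) in capitals. Hspa1a lies at chr17:34972157-34972406, Hspa1b at chr17:34959239-34959488, Jun at chr4:95052223-95052472 and Hsph1 at chr5:149636337-149636586.
Hspa1a: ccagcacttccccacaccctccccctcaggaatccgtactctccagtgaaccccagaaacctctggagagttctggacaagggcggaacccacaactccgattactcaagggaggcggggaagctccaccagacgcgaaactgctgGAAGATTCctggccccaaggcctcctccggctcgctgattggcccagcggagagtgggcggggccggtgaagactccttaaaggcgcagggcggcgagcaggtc
Hspa1b: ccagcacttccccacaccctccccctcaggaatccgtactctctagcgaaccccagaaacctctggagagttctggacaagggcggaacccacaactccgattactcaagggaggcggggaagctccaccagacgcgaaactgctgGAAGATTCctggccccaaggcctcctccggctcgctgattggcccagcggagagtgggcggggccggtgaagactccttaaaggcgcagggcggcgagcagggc
Jun: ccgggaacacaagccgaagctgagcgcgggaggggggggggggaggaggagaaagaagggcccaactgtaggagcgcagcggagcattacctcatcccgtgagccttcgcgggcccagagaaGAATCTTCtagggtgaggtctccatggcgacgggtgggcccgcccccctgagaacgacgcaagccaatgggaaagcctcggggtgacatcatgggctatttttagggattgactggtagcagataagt
Hsph1: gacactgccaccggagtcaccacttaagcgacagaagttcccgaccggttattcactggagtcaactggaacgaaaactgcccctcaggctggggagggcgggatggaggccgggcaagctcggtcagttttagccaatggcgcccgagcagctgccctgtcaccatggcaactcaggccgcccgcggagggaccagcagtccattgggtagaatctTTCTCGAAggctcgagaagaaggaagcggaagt
The windows of Hspa1a and Hspa1b were nearly the same sequence. Over 300 bases, of which 50 follow the start site, 296 were identical (98.7%), and the differences were C44T, T47C, T249G and C276T, counted from the 5′ end of the window with the Hspa1a base given first. Each held 1 pair GAANNTTC, beginning 104 bases before the start site, as did Jun 128 bases before its own, and that pair occurred in 7.86% of 32851 RefSeq windows of this length, read on both strands. Hsph1 has 2 windows, and the run shown is from the first listed. Part of that run lies inside the RefSeq span of the gene, which ends at chr5:149636498. In this window Hsph1 held the pair TTCNNGAA 33 bases before the start site, a pair found in 8.52% of windows. In the other window the pair began 54 bases before the start site. A triplet began 37 bases into the transcript from the first start site and 16 bases from the other. It is shown as a site at chr5:149636287-149636305, minus strand.
Hsph1 triplet: gcagaTTCTGGAAAGTTCt
The triplet is GAANNTTCNNGAA read on the other strand, overlaps 1 pair of each kind, and occurred in 0.603% of windows. The other members with a window were Dnajb1, Fos and Atf3, 7 of 10 in all, and these 3 held none of the heat shock motifs searched. Fos held TATAAA, found in 13.6% of windows, 33 bases before its start site. The CRE-like letters TGACG, found in 20.8%, occurred in Fos, Atf3 and Dnajb1. A match is a description of the letters and not evidence of binding.

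Levels are in FPKM, that is, fragments scaled to transcript length and to M of mapped fragments. Library depth, recovered from the steps between low values, was 20.8 to 43.5 M fragments per bulk library. The T+ WT TS12 library of the knockout table stood apart from the other 8. It listed 1046 of 1480 olfactory, vomeronasal and taste receptor genes above 0, against 26 to 38 elsewhere and at a median of 0.0952 FPKM. The TS12 genotype comparison, the WT stage comparison and the limma fit all use it. The targeted gene T was at 4.61 FPKM in T KO cells and 69.8 FPKM in WT cells at TS12, and at 3.32 FPKM in T KO cells and 76.4 FPKM in WT cells at TS13. The Tbx6 KO-titled library had 10.2 FPKM of Tbx6 and the WT-titled library had 31.5 FPKM. T RNA was above 0 in all 53 cells and Sox2 RNA in 48. Counts of all genes below leave out T, Sox2 and Tbx6, on which cells were sorted, while sums and counts of cell markers keep them. Macrophage markers, 5 of which are in the tables, summed to between 1.24 and 2.74 FPKM in the bulk libraries.

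In all 9 bulk libraries Hspa8, Hsp90aa1, Hsph1 and Dnajb1 stood in that order and above the other 6 members. Hspa8, which folds new proteins and strips clathrin coats in unstressed cells, was the most abundant of them. It was at 1870 FPKM in T+ Sox2+ cells, 2240 FPKM in T+ cells and 2165 FPKM in Sox2+ cells of the sort table. In T+ cells of the knockout table it was at 2809 FPKM in T KO and 3289 FPKM in WT at TS12, and at 2414 FPKM in T KO and 2985 FPKM in WT at TS13. In the Tbx6+ pair it was at 3289 FPKM in the Tbx6 KO-titled library and 4123 FPKM in the WT-titled library. It ranked between 7 and 10 among all kept genes of the sort table libraries and between 3 and 21 in the knockout table.

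Hsp90aa1, the stress-responsive cytosolic Hsp90, came next. Its levels were 791, 830 and 920 FPKM in T+ Sox2+, T+ and Sox2+ cells. It was at 1157 FPKM in T KO and 1131 FPKM in WT at TS12, and at 1128 FPKM in T KO and 1121 FPKM in WT at TS13. The highest level, 1640 FPKM, was in the Tbx6+ library titled WT, against 1323 FPKM in the Tbx6 KO-titled library. The 4 T+ libraries of the knockout table, which differ in genotype, strain and stage, all lay between 1121 and 1157 FPKM as deposited. With scaling to the upper quartile of values above 0, T KO minus WT at TS12 was -0.48 on the log2 scale.

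Hsph1, a nucleotide exchange factor of Hsp70, was at 76.6, 90.9 and 84.9 FPKM in T+ Sox2+, T+ and Sox2+ cells. It was at 83.3 FPKM in T KO and 77.3 FPKM in WT cells at TS12, and at 46.9 FPKM in T KO and 56.7 FPKM in WT cells at TS13. The Tbx6+ libraries had 48.6 FPKM (titled Tbx6 KO) and 66.7 FPKM (titled WT). Both TS13 libraries were below both TS12 libraries of the same table, and as deposited the order by genotype was opposite at the 2 stages. The TS12 order rests on the WT library that stands apart. With scaling to the upper quartile of values above 0, T KO minus WT was -0.41 at TS12 and -0.26 at TS13 on the log2 scale. Dnajb1, the Hsp40 partner that delivers substrates to Hsp70, varied least in relative terms in the knockout table, where its 6 values lay between 13.4 and 17.0 FPKM, a ratio of 1.27. In the sort table it was at 20.4 FPKM in T+ Sox2+, 25.5 FPKM in T+ and 27.2 FPKM in Sox2+ cells. Levels of the sort table and the knockout table were normalised separately and come from different kits, so they are set side by side only as deposited.

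**Figure D1:**
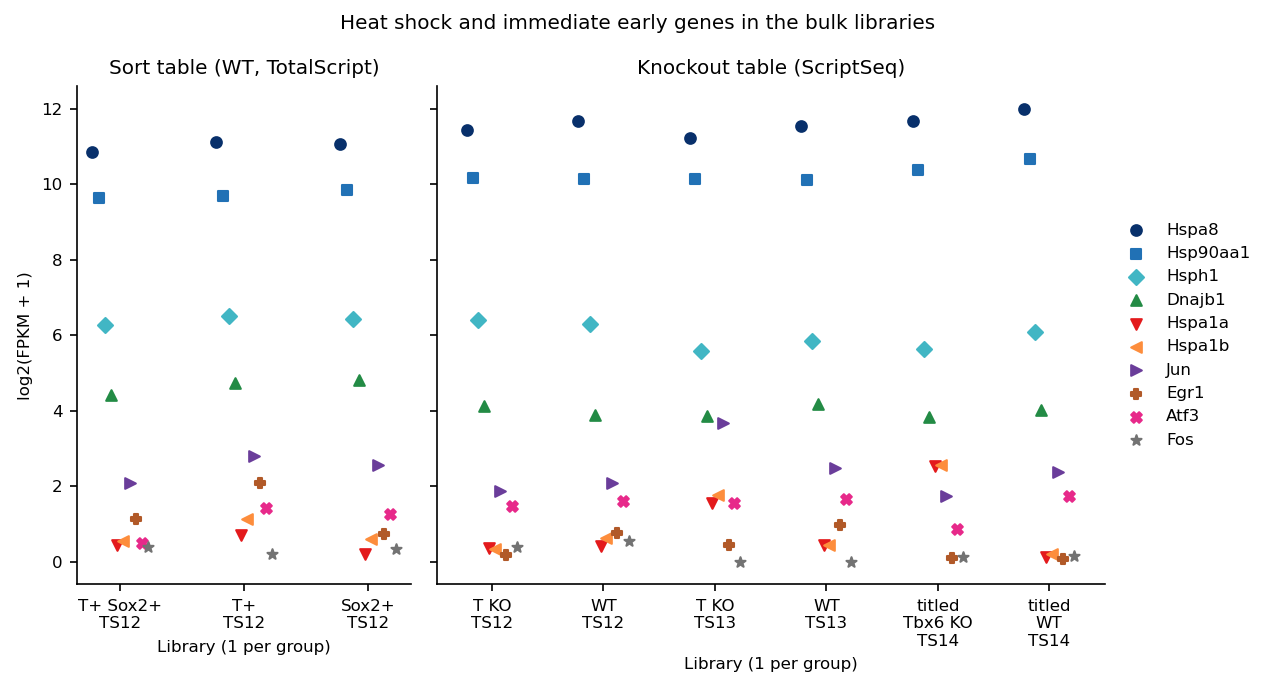
Level of each member as log2(FPKM + 1), vertical axis, in the 3 libraries of the sort table (left) and the 6 libraries of the knockout table (right), 1 library per group. Hspa8 and Hsp90aa1 lie at the top and Hsph1 and Dnajb1 in the middle in all 9 libraries, while Hspa1a, Hspa1b and Jun change place with other low members.

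The inducible Hsp70 genes Hspa1a and Hspa1b were low in most libraries and stood out in 2. Both genes lack introns and encode nearly the same protein, so reads can fit either copy and their split is uncertain. In the sort table Hspa1a was at 0.353, 0.619 and 0.150 FPKM in T+ Sox2+, T+ and Sox2+ cells, which is 23, 50 and 12 fragments. Hspa1b was at 0.458, 1.18 and 0.510 FPKM in those fractions, from 30, 96 and 41 fragments. For both genes the T+ fraction was the highest of the 3.

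In the knockout table Hspa1a was at 0.275 FPKM in T KO and 0.342 FPKM in WT cells at TS12, from 16 and 21 fragments. At TS13 it was at 1.93 FPKM in T KO cells (95% Poisson interval 1.65 to 2.24), from 170 fragments, and at 0.366 FPKM in WT cells (0.262 to 0.496), from 41 fragments. In the Tbx6+ pair it was at 4.83 FPKM in the Tbx6 KO-titled library (4.45 to 5.24), from 588 fragments, and at 0.0835 FPKM in the WT-titled library (0.0361 to 0.165), from 8 fragments. Thus 4 of the 6 libraries lay below 0.4 FPKM, and the T KO TS13 library and the Tbx6 KO-titled library lay above them with intervals that do not overlap theirs.

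Hspa1b followed the same order at the top. It was at 0.257 FPKM in T KO and 0.535 FPKM in WT cells at TS12, at 2.42 FPKM (2.105 to 2.76) in T KO and 0.364 FPKM (0.261 to 0.494) in WT cells at TS13, and at 4.92 FPKM (4.54 to 5.33) in the Tbx6 KO-titled library and 0.156 FPKM (0.0873 to 0.257) in the WT-titled library. Since the copies can exchange reads, their sum is the safer value. It was 4.35 FPKM in T KO and 0.730 FPKM in WT cells at TS13, and 9.75 FPKM in the Tbx6 KO-titled library against 0.239 FPKM in the WT-titled library. Hspa1a made up 44.4% of that sum in T KO cells at TS13 and 49.5% in the Tbx6 KO-titled library. The intervals cover counting error only, and amplified fragments are not independent molecules.

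The genes that lie beside the pair on chromosome 17 differed from each other. Hspa1l went the same way as the pair between the Tbx6+ libraries and the other way at TS13. Lsm2 went the other way in both. Hspa1l, the testis Hsp70 gene, was at 0.933 FPKM in T KO and 1.27 FPKM in WT cells at TS13, and at 0.942 FPKM in the Tbx6 KO-titled library and 0.569 FPKM in the WT-titled library. Lsm2, which encodes an RNA-binding splicing protein, was at 49.3 FPKM in T KO and 54.5 FPKM in WT cells at TS13, and at 23.6 FPKM in the Tbx6 KO-titled library and 34.4 FPKM in the WT-titled library. These 2 genes were chosen after their place in the genome was known and are given only as neighbours.

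Jun, an AP-1 subunit, was the most abundant of the 4 transcription factor members in all 9 bulk libraries, and it also stood out in T KO cells at TS13. It was at 3.26, 5.91 and 4.93 FPKM in T+ Sox2+, T+ and Sox2+ cells of the sort table. In the knockout table it was at 2.64 FPKM (95% Poisson interval 2.26 to 3.06) in T KO and 3.23 FPKM (2.82 to 3.68) in WT cells at TS12. At TS13 it was at 11.9 FPKM (11.2 to 12.5) in T KO cells, from 1190 fragments, and at 4.62 FPKM (4.25 to 5.01) in WT cells, from 590 fragments. The Tbx6+ libraries had 2.33 FPKM (titled Tbx6 KO) and 4.19 FPKM (titled WT). The Tbx6 KO-titled library, highest in both Hsp70 genes, was the lowest of the 6 in Jun.

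The other 3 transcription factor members stayed below 4 FPKM in every bulk library. Egr1, a zinc finger factor induced through ERK, was at 1.20, 3.25 and 0.672 FPKM in T+ Sox2+, T+ and Sox2+ cells. It was at 0.125 FPKM in T KO and 0.682 FPKM in WT cells at TS12, at 0.351 FPKM in T KO and 0.975 FPKM in WT cells at TS13, and at 0.0748 FPKM in the Tbx6 KO-titled library and 0.0475 FPKM in the WT-titled library. All 6 values of the knockout table were below 1 FPKM. Atf3, a stress-induced repressor of the ATF family, was at 0.413, 1.70 and 1.38 FPKM in T+ Sox2+, T+ and Sox2+ cells. It was at 1.78 FPKM in T KO and 2.03 FPKM in WT cells at TS12, at 1.93 FPKM in T KO and 2.15 FPKM in WT cells at TS13, and at 0.826 FPKM in the Tbx6 KO-titled library and 2.32 FPKM in the WT-titled library. Its highest level in the knockout table was in the WT-titled library, where Hspa1a and Hspa1b were at their lowest.

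Fos, the AP-1 partner of Jun and the usual first sign of an immediate early response, stayed below 0.5 FPKM throughout. It was at 0.308, 0.149 and 0.267 FPKM in T+ Sox2+, T+ and Sox2+ cells, and at 0.299 FPKM in T KO and 0.457 FPKM in WT cells at TS12. Both TS13 libraries list it at 0, including the T KO library in which Jun was at its highest. The Tbx6+ libraries had 0.0878 FPKM (titled Tbx6 KO) and 0.112 FPKM (titled WT).

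**Figure D2:**
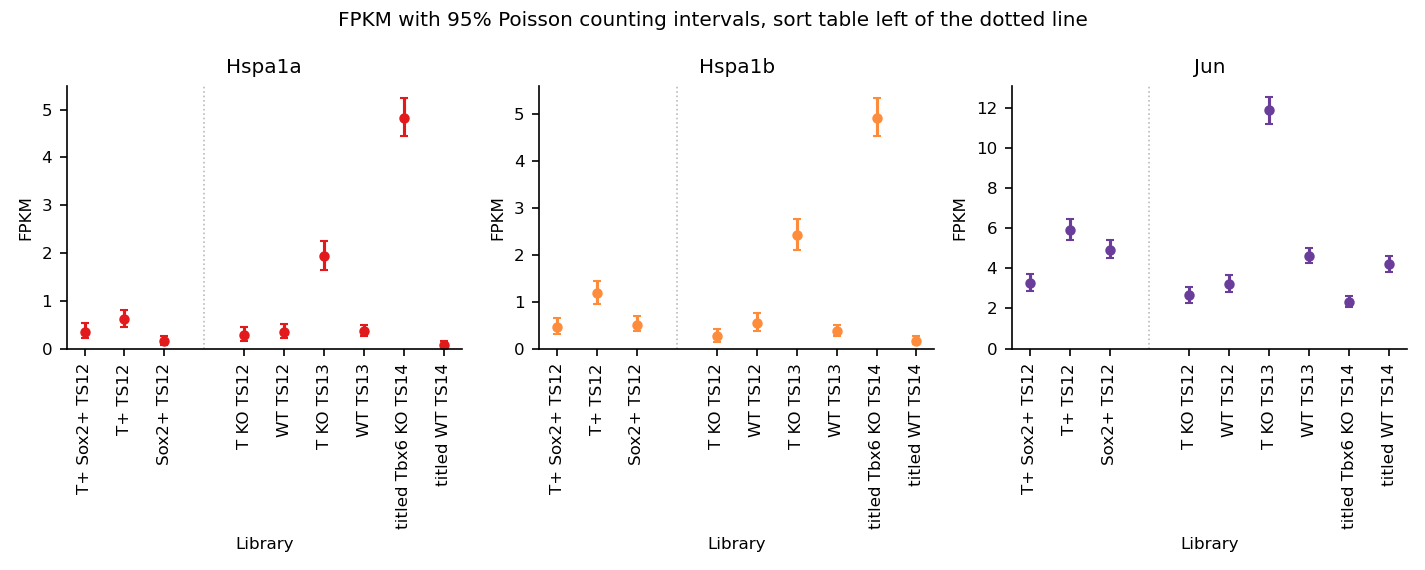
FPKM (vertical axes, linear) of Hspa1a, Hspa1b and Jun in the 9 bulk libraries, with bars for the 95% Poisson interval of the fragments behind each value. The Tbx6 KO-titled library is highest for Hspa1a and Hspa1b, at 4.83 and 4.92 FPKM, and the T KO TS13 library is highest for Jun, at 11.9 FPKM.

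Between the sorted WT fractions none of the 4 or 5 members abundant enough to be compared passed 2-fold. Differences are of log2(FPKM + 1), which understates the change of low genes, and a gene was compared where 1 of the 2 libraries reached 5 FPKM. These 3 comparisons share libraries with each other. In T+ Sox2+ against Sox2+ cells 0 of the 4 members compared passed, and 2.94% of all genes compared did. The members' median was -0.21 on the log2 scale, and that of all genes was -0.01. In T+ Sox2+ against T+ cells 0 of 5 passed, against 3.17% of all genes, and Jun differed by -0.70. Egr1 and Atf3, both below 5 FPKM, differed by -0.95 and -0.93 in that comparison. In T+ against Sox2+ cells 0 of 5 passed, against 6.9% of all genes. Egr1, again below 5 FPKM, was higher by 1.34 in T+ than in Sox2+ cells. The T+ fraction also held the most red cell RNA, with 9 of 9 markers at 5 FPKM or more and a sum of 15180 FPKM, against 142 FPKM in T+ Sox2+ cells and 274 FPKM in Sox2+ cells. Lateral plate markers summed to 16.02 FPKM in T+ Sox2+, 122 FPKM in T+ and 5.11 FPKM in Sox2+ cells, with 1, 5 and 0 of 7 at 5 FPKM or more. Endothelial markers summed to 4.25 FPKM in T+ Sox2+, 46.5 FPKM in T+ and 3.41 FPKM in Sox2+ cells, with 0, 3 and 0 of 8 at 5 FPKM or more. In bulk samples fewer cells of a type and less RNA per cell cannot be told apart, and the part of these cells in the level of Egr1, Hspa1a or Hspa1b was not tested.

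Other genes of these pathways were read from lists, in which 6 of 25 inducible heat shock genes and 4 of 36 immediate early genes are the members themselves. Of 17 inducible heat shock genes compared 0 passed 2-fold in each of the 3 comparisons, and of 25 constitutive chaperones and cochaperones 0 did. The shares of all genes were 2.94% for T+ Sox2+ against Sox2+, 3.17% for T+ Sox2+ against T+ and 6.9% for T+ against Sox2+ cells. In that order 1 of 14, 1 of 15 and 1 of 14 immediate early genes passed. Of 12, 12 and 11 ERK feedback and target genes 1, 2 and 1 were higher and 1, 0 and 1 lower. Among immediate early genes Btg2, an antiproliferative gene, was at 47.6 FPKM in T+ Sox2+ and 58.1 FPKM in T+ cells, against 15.4 FPKM in Sox2+ cells. Among ERK feedback genes Spry1, an inhibitor of receptor tyrosine kinase signalling, was at 19.8 FPKM in T+ Sox2+ and 10.7 FPKM in T+ cells, against 55.6 FPKM in Sox2+ cells. Phlda1 went the other way, at 21.2 FPKM in T+ Sox2+ and 22.4 FPKM in T+ cells, against 9.98 FPKM in Sox2+ cells. Spry4 was at 42.6 FPKM in T+ Sox2+ cells, against 20.0 FPKM in T+ cells. Ier3 was at 6.66 FPKM in T+ Sox2+ cells, against 2.41 FPKM in T+ cells. Ier3 was compared only because the T+ Sox2+ library reached 5 FPKM.

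The integrated stress response list, genes downstream of ATF4, was mixed between the fractions. In the same order of comparisons, 1, 1 and 0 of 15, 13 and 16 genes were higher past 2-fold and 2, 0 and 3 lower. The shares of all genes were 2.94%, 3.17% and 6.9%. Chac1 and Gadd45a reached 5 FPKM only in Sox2+ cells and were compared only through that fraction. Chac1, a glutathione-degrading enzyme, was at 2.16 FPKM in T+ Sox2+ and 2.47 FPKM in T+ cells, against 8.02 FPKM in Sox2+ cells. Gadd45a, a growth arrest gene, was at 3.47 FPKM in T+ Sox2+ and 3.82 FPKM in T+ cells, against 9.23 FPKM in Sox2+ cells. Ddit4, an inhibitor of mTORC1, was at 44.9 FPKM in T+ Sox2+ cells, against 19.7 FPKM in Sox2+ cells. Stc2, a secreted glycoprotein, was at 20.96 FPKM in T+ Sox2+, 8.00 FPKM in T+ and 21.8 FPKM in Sox2+ cells.

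At TS12 no member compared differed by 2-fold between T KO and WT cells. The count was 0 of 4, and 1.97% of all genes passed. Hspa8 differed by -0.23, Hsp90aa1 by 0.03, Hsph1 by 0.11 and Dnajb1 by 0.22. These values rest on the WT library that stands apart. Scaling to the upper quartile of values above 0 moved the median of all genes by -0.49. It turned Hsp90aa1, Hsph1 and Dnajb1 negative, at -0.48, -0.41 and -0.27. That quartile depends on how many low genes are above 0. This WT library had 20556 genes above 0 and the T KO library 15656, and the part of this in the signs was not tested. Of the pathway lists, 0 genes passed 2-fold in any.

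At TS13 Jun was the only member compared that passed 2-fold between T KO and WT cells. It was higher by 1.19 on the log2 scale, at place 50 of 7949 genes, and 1 of 5 members passed while 2.59% of all genes did. Jun was compared only because the T KO library, at 11.9 FPKM, reached 5 FPKM, with WT at 4.62 FPKM. At TS12 neither library reached it, so Jun was not compared there. Hspa1a was higher by 1.101 and Hspa1b by 1.33, and both were below the minimum of 5 FPKM in each library. The 4 abundant chaperones lay short of 2-fold, with Hspa8 at -0.31, Hsp90aa1 at 0.01, Hsph1 at -0.27 and Dnajb1 at -0.30, against a median of -0.04 over all genes. Markers of other cells differed in the same pair of libraries. Neural progenitor markers summed to 92.8 FPKM in T KO and 30.5 FPKM in WT cells, with 4 and 3 of 8 markers at 5 FPKM or more. Presomitic markers summed to 24.8 FPKM in T KO and 204 FPKM in WT cells, with 2 and 6 of 8 at 5 FPKM or more and Mesp2 and Ripply2 at 0 in T KO cells, where the red cell gene Hba-a2 was also at 0. Red cell markers summed to 2334 FPKM in T KO and 2984 FPKM in WT cells, with 6 and 7 of 9 at 5 FPKM or more. Endothelial markers summed to 45.96 FPKM in T KO and 83.4 FPKM in WT cells, with 2 and 5 of 8 at 5 FPKM or more. The part of these cells in the levels of Jun, Hspa1a and Hspa1b was not tested.

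In the TS13 comparison 5 pathway genes other than Jun passed 2-fold, in a comparison where 2.59% of all genes did. Of 20 inducible heat shock genes compared 1 was lower and 0 higher. That gene was Hspb8, a small heat shock protein, at 2.35 FPKM in T KO and 6.02 FPKM in WT cells. Of 13 immediate early genes compared, Jun was the only one higher, and Maff, a small Maf factor, was the only one lower, at 3.88 FPKM in T KO and 9.13 FPKM in WT cells. Of 13 integrated stress response genes 2 were higher, Ddit3 (CHOP), at 5.72 FPKM in T KO and 2.30 FPKM in WT cells, and Gadd45a, at 8.35 FPKM in T KO and 3.44 FPKM in WT cells. Of 12 ERK feedback and target genes Spry4 was lower, at 6.58 FPKM in T KO and 16.5 FPKM in WT cells. Hspb8, Maff, Ddit3 and Gadd45a reached 5 FPKM only in the library where each was higher. Like Jun, they were compared only through that library, while Spry4 reached 5 FPKM in both. The list medians were -0.22 for inducible heat shock genes, -0.14 for immediate early genes and -0.20 for integrated stress response genes. They were -0.52 for ERK feedback and target genes and -0.33 for unfolded protein response genes, against -0.04 over all genes.

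Fitted over both stages, none of the 5 members that could be tested was called for T genotype. The limma fit used the 4 T+ libraries with stage as a term, which leaves 1 residual degree of freedom, so its spread is mostly borrowed across genes. The 4 include the WT TS12 library that stands apart. It tested 7582 genes with a mean of 5 FPKM or more, of which 45 rose and 49 fell, 1.24% together, at an adjusted p of 0.05. Of the 5 members tested 0 were called, and the smallest unadjusted limma p was 0.134, for Jun. Jun differed by 0.49 (SE 0.300, limma adjusted p 0.54), higher in T KO at TS13 and lower in T KO at TS12. Hspa8 differed by -0.27 (SE 0.322, limma adjusted p 0.78), lower in T KO at both stages. Dnajb1 differed by -0.04, Hsph1 by -0.08 and Hsp90aa1 by 0.02. The other 5 members were below the minimum. With no minimum all 10 were tested and 0 called. At that setting 4 members had an unadjusted limma p under 0.05, as did 2174 of all 18389 genes tested. The 4 members were Egr1, which differed by -0.56 (limma adjusted p 0.162), Hspa1a by 0.51 (0.301), Hspa1b by 0.52 (0.341) and Jun by 0.49 (0.408).

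Of the lists in that fit, 1 gene was called. Maff fell by 0.98 in T KO cells (SE 0.192, limma adjusted p 0.0407), and no other of the 12 immediate early genes tested passed. It was at 3.61 FPKM in T KO and 7.67 FPKM in WT cells at TS12, where the WT library is the one that stands apart, and, as above, lower in T KO cells at TS13 too. The call was lost without the stage term (limma adjusted p 0.206), with a pseudocount of 5 (0.0656) and without any 1 of the 4 libraries, where the stage term also had to go (0.300 to 0.450). None of 17 inducible heat shock genes, 25 constitutive chaperones, 2 heat shock factors, 12 integrated stress response genes, 16 unfolded protein response genes and 11 ERK feedback genes passed. Their medians were -0.16, -0.23, 0.18, -0.23, -0.37 and -0.07 in that order, against -0.01 over all genes tested.

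Between stages, Jun in T KO cells was the only member compared past 2-fold. The stage comparisons share their libraries with the genotype comparisons. In T KO cells at TS13 against TS12 Jun was higher by 1.82, at place 13 of 7916 genes, and 1 of 5 members passed while 1.48% of all genes did. Here too Jun was compared only through the TS13 library, at 11.9 FPKM, against 2.64 FPKM at TS12. Hspa1a was higher by 1.20 and Hspa1b by 1.44 in the same pair, both below 5 FPKM. Red cell markers summed to 2334 FPKM at TS13 and 477 FPKM at TS12 in these T KO cells, with 6 and 5 of 9 at 5 FPKM or more, and neural markers to 92.8 FPKM at TS13 and 35.4 FPKM at TS12, with 4 and 3 of 8. Sox2 alone made up 43.5 FPKM of the neural sum at TS13 and 14.9 FPKM at TS12. The part of these cells in the levels of Jun, Hspa1a and Hspa1b was not tested. Hsph1 was lower by 0.82 short of 2-fold, at 46.9 FPKM at TS13 and 83.3 FPKM at TS12. In WT cells at TS13 against TS12 0 of 4 members passed, with 1.35% of all genes, and Jun differed by 0.41, Hsph1 by -0.44, Dnajb1 by 0.27, Hspa1a by 0.03 and Hspa1b by -0.17. The TS12 library here is the one that stands apart. Scaling to the upper quartile moved the median of all genes by -0.52 and gave -0.03 for Jun, -0.99 for Hsph1, -0.25 for Dnajb1 and -0.13 for Hspa1a, so that Jun, Dnajb1 and Hspa1a turned negative. Whether the T KO and WT stage differences differ was not tested, since each is made of 2 single libraries. Among other pathway genes, Btg2 was at 9.30 FPKM at TS13 and 3.92 FPKM at TS12 in T KO cells, and Ddit3 was at 5.72 FPKM at TS13 and 1.93 FPKM at TS12. The ERK target Etv4 was at 11.8 FPKM at TS13 and 26.8 FPKM at TS12 in T KO cells, and Spry4 at 6.58 FPKM at TS13 and 17.3 FPKM at TS12. In WT cells Ier3 was at 5.91 FPKM at TS13 and 1.17 FPKM at TS12. Btg2 and Ddit3 in T KO cells and Ier3 in WT cells reached 5 FPKM only at TS13 and were compared only through that library.

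**Figure D3:**
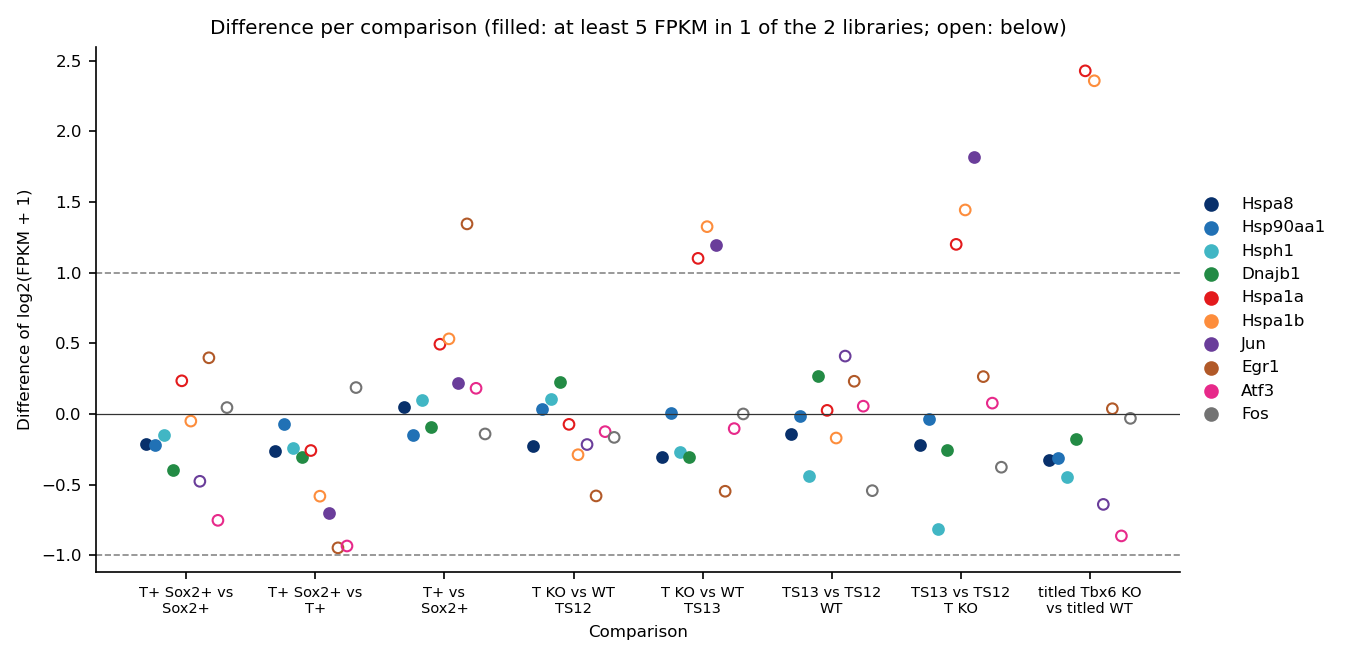
Difference of log2(FPKM + 1) of each member (vertical axis) in the 8 comparisons, with filled points where 1 of the 2 libraries reached 5 FPKM and dashed lines at 2-fold. Jun is the only filled point beyond the lines, and Hspa1a and Hspa1b lie beyond them as open points in the last pair, the T KO stage comparison and T KO against WT at TS13, as does Egr1 in T+ against Sox2+ cells.

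In the Tbx6+ pair Hspa1a and Hspa1b showed the widest differences of any member in the 8 comparisons, between libraries whose genotype the labels leave contradictory. The Tbx6 KO-titled library was above the WT-titled library by 2.43 for Hspa1a and 2.36 for Hspa1b on the log2 scale. As ratios of FPKM these are 57.8 and 31.6, with 8 and 15 fragments in the WT-titled library. Neither gene reached 5 FPKM, so 0 of 4 members compared passed, while 4.07% of all genes did. Summed as 1 gene the pair passes the minimum and 2-fold. The 4 abundant chaperones were all lower in the Tbx6 KO-titled library, by 0.18 to 0.45 on the log2 scale and less than 2-fold, with a median of -0.32 over the 4 members compared and -0.04 over all genes. Atf3 was lower by 0.86 and Jun by 0.64.

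Among 3 stress lists 2 genes passed 2-fold in the Tbx6+ pair, in a comparison where 4.07% of all genes did. Of 18 inducible heat shock genes compared 0 passed 2-fold in either direction, at a median of -0.26. Medians were 0.27 for immediate early genes, -0.22 for integrated stress response genes and 0.56 for ERK feedback and target genes, against -0.04 over all genes. Of 10 immediate early genes Btg2 was lower, at 26.1 FPKM in the Tbx6 KO-titled library and 81.4 FPKM in the WT-titled library. Of 12 integrated stress response genes Stc2 was higher, at 30.3 FPKM in the Tbx6 KO-titled library and 14.1 FPKM in the WT-titled library. Markers of other cells also differed between the 2 libraries. Red cell markers summed to 355 FPKM in the Tbx6 KO-titled library and 1.53 FPKM in the WT-titled library, with 4 and 0 of 9 markers at 5 FPKM or more and Slc4a1 and Gata1 at 0 in the WT-titled library. Axial progenitor markers summed to 997 FPKM in the Tbx6 KO-titled library and 297 FPKM in the WT-titled library, with 7 and 6 of 8 at 5 FPKM or more. T alone made up 471 and 166 FPKM of the axial sums. Neural markers summed to 48.1 and 12.5 FPKM in those libraries, with 1 and 0 of 8 at 5 FPKM or more. Sox2 alone made up 42.3 and 4.70 FPKM of these sums and was the 1 marker that reached 5 FPKM. Lateral plate markers summed to 8.13 and 37.2 FPKM, with 0 and 4 of 7. Presomitic markers summed to 335 FPKM in the Tbx6 KO-titled library and 490 FPKM in the WT-titled library, with 5 and 6 of 8 at 5 FPKM or more and Mesp2 and Ripply2 at 0 in the Tbx6 KO-titled library. Endothelial markers summed to 8.19 and 33.4 FPKM in those libraries, with 0 and 2 of 8, and notochord markers to 12.04 and 31.9 FPKM, with 1 and 2 of 6. Numbers of cells of a type and RNA per cell cannot be told apart here. The part of these cells in the level of Hspa1a and Hspa1b was not tested.

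In the single cells the same order of levels held, and the abundant and the inducible genes differed in how evenly they were spread. The 53 cells are 1 sample on 1 chip, so their values are a description with no test. Hspa8 was found in all 53 cells, from 1408 to 3441 FPKM with a median of 2305 FPKM, and its coefficient of variation was 0.217. Hsp90aa1 was found in all 53, from 727 to 2614 FPKM with a median of 1597 FPKM and a coefficient of variation of 0.230. By median they ranked at places 16 and 34 among kept genes. No cell lacked either chaperone.

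Hsph1 and Dnajb1 varied more between cells. Hsph1 was above 0 in all 53 cells, from 0.167 to 287 FPKM with a median of 85.4 FPKM and a coefficient of variation of 0.618, and 2 cells were below 10 FPKM and 2 at 200 FPKM or more. Dnajb1 was above 0 in 47 cells, 88.7% (exact Clopper-Pearson 95% interval 77.0 to 95.7), with a median of 15.5 FPKM, a maximum of 292 FPKM and a coefficient of variation of 1.48. Its cells were spread over the whole range, with 14 below 1 FPKM, 8 at 1 to under 10, 25 at 10 to under 100 and 6 at 100 FPKM or more. In the bulk T+ Sox2+ library of TS12, made with another kit, Dnajb1 was at 20.4 FPKM and Hsph1 at 76.6 FPKM.

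The inducible Hsp70 genes and the transcription factor members were found in few cells. Hspa1b was above 0 in 5 cells (9.43%, interval 3.13 to 20.7), up to 44.6 FPKM, and Hspa1a in 4 cells (7.55%, 2.09 to 18.2), up to 19.8 FPKM. These made 8 cells with either gene and 1 cell with both. Jun was above 0 in 13 cells (24.5%, 13.8 to 38.3), of which 5 were at 5 FPKM or more, and its maximum was 17.3 FPKM. Egr1 was found in 3 cells (5.66%, 1.18 to 15.7) and Fos in 1 cell (1.89%, 0.0478 to 10.1), at 3.25 FPKM. Atf3 was found in 0 of 53 cells, which allows a share of cells with a value above 0 of up to 5.66% by the limit of 3 counts and 6.72% by the exact interval, and sets no limit on cells that express it. In all 17 cells had 1 of the 4 transcription factor members and 0 had more than 1, and 2 cells had both Jun and an inducible Hsp70 gene. The depth of each cell is unknown, a cell listed at 0 may hold transcripts that were not captured, and the intervals cover counting error only.

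**Figure D4:**
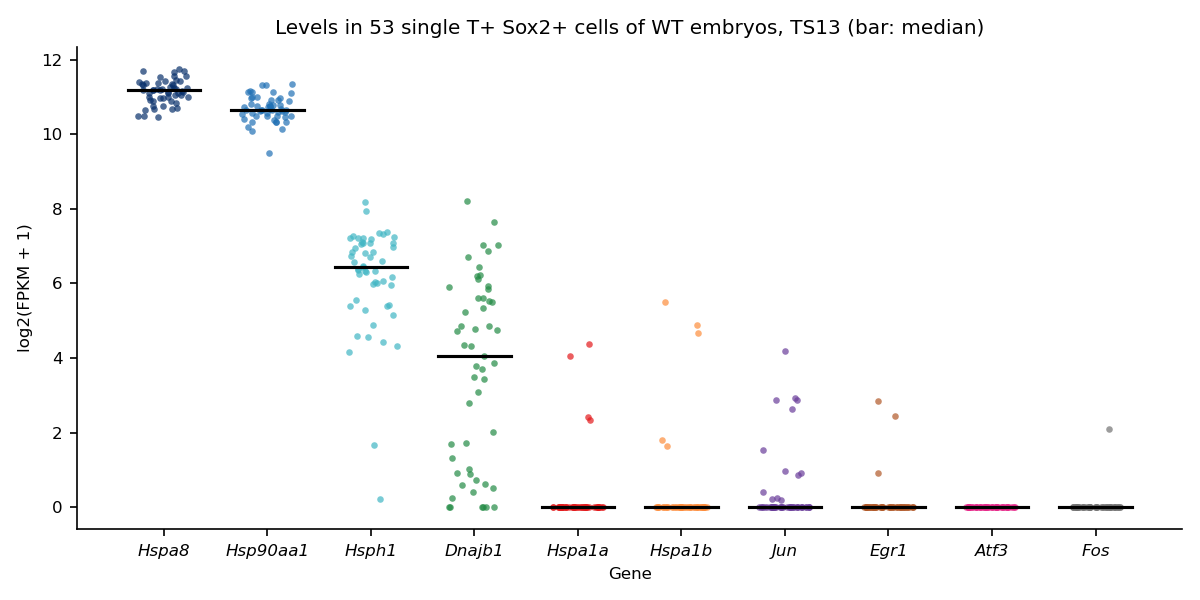
Level of each member as log2(FPKM + 1) (vertical axis) in 53 single T+ Sox2+ cells (WT, TS13), each point 1 cell and each bar the median. Hspa8 and Hsp90aa1 form tight bands, Dnajb1 runs from 0 to 292 FPKM, and Hspa1a, Hspa1b, Jun, Egr1, Atf3 and Fos have a median of 0.

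Across the cells the chaperone members were only loosely related to each other. Hspa8 and Hsp90aa1 had a Spearman rho of 0.39 over the 53 cells, Hsph1 and Dnajb1 of 0.19, and Hsp90aa1 and Dnajb1 of -0.23. The number of genes above 0 per cell, from 4320 to 9610 with a median of 6457, moved with several members, with a rho of 0.47 for Jun, 0.36 for Dnajb1 and -0.31 for Hspa8. The points share 1 chip and differ in the number of genes found, and the part of that number in these relations was not tested.

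The genes most like each member across cells were named by a fixed rule, the 3 highest rho among 6672 genes found in at least 27 of the 53 cells. For Hsp90aa1 they were Hsp90ab1 (0.54), which encodes the constitutive Hsp90, Vcp (0.48), a segregase of ubiquitin-marked proteins, and Celsr1 (0.44), a planar polarity cadherin. For Hspa8 they were Mrpl34 (0.52), Ndufs5 (0.51) and Tmem160 (0.49). For Hsph1 they were Ppm1g (0.53), Crlf3 (0.51) and Arl16 (0.50). For Dnajb1 they were Zfp62 (0.59), Btf3l4 (0.51) and Ube2d1 (0.51), and Zfp62 had itself a rho of 0.54 with the number of genes found. The other 6 members were found in too few cells for the rule. The highest of 6672 rho over 53 cells are large by selection, and none of these relations was tested.

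**Figure D5:**
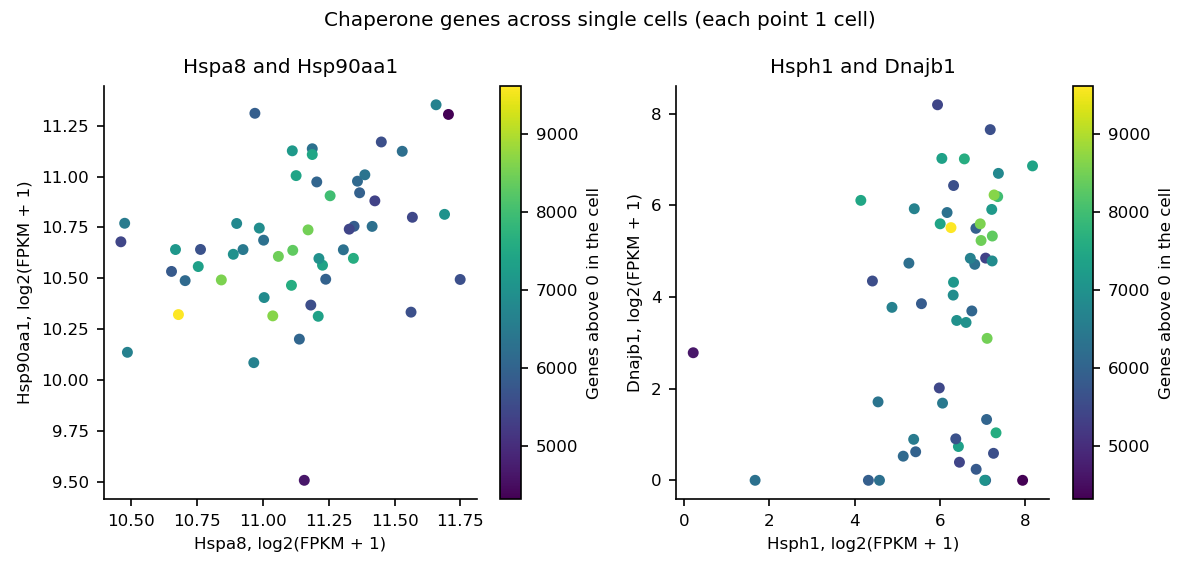
Hsp90aa1 against Hspa8 (left) and Dnajb1 against Hsph1 (right) in the 53 cells, both axes as log2(FPKM + 1), coloured by the number of genes above 0 in the cell. Spearman rho was 0.39 on the left and 0.19 on the right, where cells without Dnajb1 occur over most of the range of Hsph1.

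The wider lists, which include the members, were found in the cells to different extents. Of all 19728 kept genes 6672 were above 0 in at least 27 of the 53 cells. The shares of all genes found in every cell and in none were not computed. Of 25 inducible heat shock genes 11 were above 0 in every cell, 18 in at least 27 cells and 1, Cryab, in none, and of 25 constitutive chaperones 14 were in every cell and 25 in at least 27. Of 36 immediate early genes 0 were in every cell, 10 were in at least 27 cells and 6 were in none, namely Atf3, Fosb, Fosl1, Egr3, Egr4 and Nr4a3. Those found most widely were Mcl1, a survival factor, in 51 cells with a median of 32.1 FPKM, Srf, the factor that binds serum response elements, in 47, Jund in 46 and Myc in 44. Ier2 was found in 43 cells with a median of 25.4 FPKM, and Btg2 in 41 with a median of 13.0 FPKM. Of the heat shock factors Hsf1 was found in 36 cells with a median of 7.55 FPKM and Hsf2 in 43 with a median of 7.15 FPKM. Hspe1 and Hspd1, the mitochondrial chaperonins that share a promoter, were in all 53, with medians of 2874 and 356 FPKM.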

How the data were processed

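RNA was measured in 9 bulk libraries and 53 single cells. The 12 ATAC and 5 ChIP samples were not analysed here. The authors deposited FPKM, with each symbol listed once. Build mm10 and the tools Cufflinks 2.2.1 (Cuffdiff, Cuffnorm), TopHat2 2.1.0, Picard 1.103, Bowtie 1.1.2, SAMtools and bedtools 2.23.0 are named in the submitters' processing notes. What each did, the annotation and the scaling are not given in the sources used. FPKM are not counts, so no count test was run.

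The 10 members and the pathway and marker lists were chosen with earlier results of these data known. Each table was read separately. Differences are of log2(FPKM + 1) between single libraries, with 2-fold as the threshold, over genes that reach 5 FPKM in either library. Small RNA genes, numbered gene models and joined symbols were left out of counts and ranks. The red cell marker list holds 9 genes, and 1 further marker is not reported here. limma 3.58.1 (R 4.3.3) fitted T KO against WT over 4 T+ libraries with stage as a term and was tested on simulated data. Its p-values measure only the spread between these libraries. Named genes are all members and, per list and comparison, up to 4 others with the largest difference past 2-fold, plus the 3 genes most like each widely found member across cells. Other genes given as levels were chosen after their values were seen.

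Depth was estimated from FPKM steps. Between 36.3% and 57.9% of the low genes searched lay within a relative tolerance of 0.0003 of a whole number of up to 15 fragments, 120 to 1119 genes per library, and at most 21 did with lengths shuffled. Hspa1a, Hspa1b and Jun then came out whole within 0.01 fragments in every bulk library. The steps held for too few genes to rebuild counts. The labels name 55 capture sites with cells, all 53 deposited cells were used, and doublets were not tested. Promoters come from RefSeq (GRCm38.p6).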

Additional observations from a re-analysis of the deposited data

Results flagged for a closer look

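Hspa1a, Hspa1b and Jun were lower in T KO than in WT cells at TS12 and higher in T KO than in WT cells at TS13. The T KO minus WT difference at TS13 exceeded that at TS12 by 1.17 for Hspa1a, 1.61 for Hspa1b and 1.41 for Jun on the log2(FPKM + 1) scale. Each stage has 1 library per genotype, so the difference between stages was not tested. Jun had 175 fragments in T KO and 226 in WT cells at TS12, and 1190 in T KO and 590 in WT cells at TS13. At TS12 Hspa1a had 16 fragments in T KO and 21 in WT cells, and Hspa1b had 15 and 33. The TS12 values rest on the WT library that lists 1046 sensory receptor genes above 0, and its part in these differences was not tested.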

How the results depend on the processing

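No paired analysis was possible because no group has replicate numbers and each is 1 library; the stage term of the limma fit sets T KO against WT within a stage. The count of members past 2-fold stayed in 36 of 44 alternatives. Without a minimum it was 1 in T+ against Sox2+ cells (Egr1), 3 in T KO against WT cells at TS13 and 3 in TS13 against TS12 T KO cells (Hspa1a, Hspa1b and Jun in each), and 2 in the Tbx6+ pair (Hspa1a and Hspa1b). With the copies summed at the minimum of 5 FPKM, an alternative chosen after seeing the data, the Tbx6+ pair had 1, against 0 with the copies apart. With a minimum of 20 FPKM it was 0 in both T KO comparisons that had 1, and with a pseudocount of 5 it was 0 in T KO against WT cells at TS13, where Jun differed by 0.81. The limma counts over all genes, 45 that rose and 49 that fell, were 26 that rose with a pseudocount of 5, 234 and 352 with no minimum, 12 and 16 with a minimum mean of 20 FPKM, 14 that rose with upper-quartile scaling, 3 and 12 without the stage term, and 1 to 5 and 7 to 16 with 1 library left out. No member was called in the 47 alternative limma values, and Jun could not be tested without the T KO TS13 library because its mean then fell under 5 FPKM. Upper-quartile scaling, taken over values above 0, moved the median of all genes by -0.49 in T KO against WT at TS12. It moved that median by -0.52 in TS13 against TS12 in WT, and by 0.05 or less in size elsewhere. Hspa8 in limma was then at -0.52 (adjusted p 0.059). TS13 against TS12 in WT has no value without the T+ WT TS12 library. Of 410 alternatives of member differences 101 moved by 0.1 or more on the log2 scale. A change of minimum cannot move a difference, and a pseudocount cannot change its sign. A turn of sign was looked for only where a member passed 2-fold, which was Jun in both T KO comparisons that had 1, and 0 were found. Jun was at 5 FPKM or more in 9.43% of cells and Dnajb1 in 64.2%. The 8 fragments behind the lowest Hspa1a value allow 3.45 to 15.8 by counting error. The causes were not tested.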
